A study of Homo sapiens with 14 samples.

Results

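The comparison described here set 2 libraries of the group SA1Q+gRNA against 2 libraries of the group SA1+gRNA, 4 of the 14 libraries in the series. The group labels decided which libraries belong to it. All 14 were made from 293 Flip-In T-REx cells. This line derives from human embryonic kidney and has an engineered site that takes up 1 transgene. SA1+gRNA cells carried SNAP-ADAR1 and had received a guide RNA. SA1Q+gRNA cells carried SNAP-ADAR1Q, marked E406Q in the labels, and had also received a guide RNA. Beside these, the text uses SA1Q (the same mutant line with no guide), ctrl (a line with an empty vector), and SA2Q+gRNA and SA2+gRNA, the guide-treated lines with SNAP-ADAR2Q (E403Q) and SNAP-ADAR2. Each group had 2 libraries, which the series describes as biologically independent. The target of the guide is not given in the sources used here. No SNAP-ADAR1 library without guide was used, and each enzyme was carried by a line of its own, so the mutation and the line that carries it cannot be told apart.

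ADAR enzymes convert adenosine to inosine in double-stranded RNA, and ribosomes and sequencers read inosine as guanosine. In a SNAP-ADAR, the part of ADAR that binds double-stranded RNA is replaced by a SNAP tag, a protein that bonds covalently to a chemically modified guide RNA, so the guide decides where the deaminase domain acts. The glutamate-to-glutamine change in that domain is known as a hyperactive mutation. ADAR in its natural role also keeps cellular double-stranded RNA from being read as viral. The interferon system and a kinase that can start the integrated stress response read such RNA. The study was designed to find editing events, whereas the values below are transcript levels.

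Depth was 43.0 and 63.5 M fragments in SA1Q+gRNA replicates 1 and 2, and 58.1 M in SA1+gRNA replicate 1. SA1+gRNA replicate 2 was deposited with 130.1 M, but each of its counts above 0 was an even number (100%, against 47.7% to 48.7% in the other libraries). Its counts were divided by 2, which gave 65.1 M. SA1Q+gRNA replicate 1 stood apart from the rest of the series. On the first principal component (24.7% of the variance) it lay at -43.5 and ctrl replicate 1 at -39.2, with the other 12 libraries between 0.3 and 13.7. The unprocessed ribosomal transcript RNA45SN5 was at 12000 CPM (counts scaled to a common library total) in SA1Q+gRNA replicate 1, against 2710 in replicate 2 and 2730 and 2370 in SA1+gRNA. It varied in other libraries too, at 4110 in ctrl replicate 1, 6330 in ctrl replicate 2 and 8550 in SA2+gRNA replicate 2. The log2 difference between the SA1Q+gRNA replicates had an SD of 0.474 over genes and rose with GC content (Spearman's rho 0.54 across genes, which are not independent replicates). In SA1+gRNA the SD was 0.318 and the rho was -0.43. The next component (14.1%) ranged from 16.8 to 22.9 in the SA1Q line, with and without guide (4 libraries), and from -18.8 to -1.7 in the 10 libraries of other lines.

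ADAR itself, whose reads include the deaminase domain of the transgene, was checked first. ADAR (chromosome 1, 154554534 to 154580724 on hg19, minus strand) was at 1320 and 1130 CPM in SA1Q+gRNA and at 1430 and 1600 CPM in SA1+gRNA. SA1Q held 1100 and 1080 CPM, and ctrl held 307 and 340 CPM. All libraries of the ADAR1 lines were thus above both ctrl libraries, and both SA1Q+gRNA libraries were below both SA1+gRNA libraries. The log2 change between these groups was -0.30 (SE 0.09), with an adjusted p of 0.11 (edgeR's quasi-likelihood test, adjusted over all genes), which did not pass the threshold of 0.05. Without SA1Q+gRNA replicate 1 and ctrl replicate 1, the difference was -0.42 and did pass. ADARB1, the second editing enzyme, differed by 0.12 (SE 0.11; adjusted p = 0.62), at 28.6 and 31.7 CPM in SA1Q+gRNA and at 25.5 and 30.1 CPM in SA1+gRNA. MGMT, the DNA repair gene from which the SNAP tag was engineered, was at 19.8 and 14.2 CPM in SA1Q+gRNA and at 16.4 and 16.8 CPM in SA1+gRNA (log2 change 0.03, SE 0.13; adjusted p = 0.94). Of the housekeeping genes, ACTB, GAPDH and GUSB differed by 0.08, 0.01 and 0.00 on the log2 scale, with adjusted p of 0.77, 0.98 and 0.98; the signs of these 3 and of MGMT changed under some of the other settings tried.

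**Figure D1:**
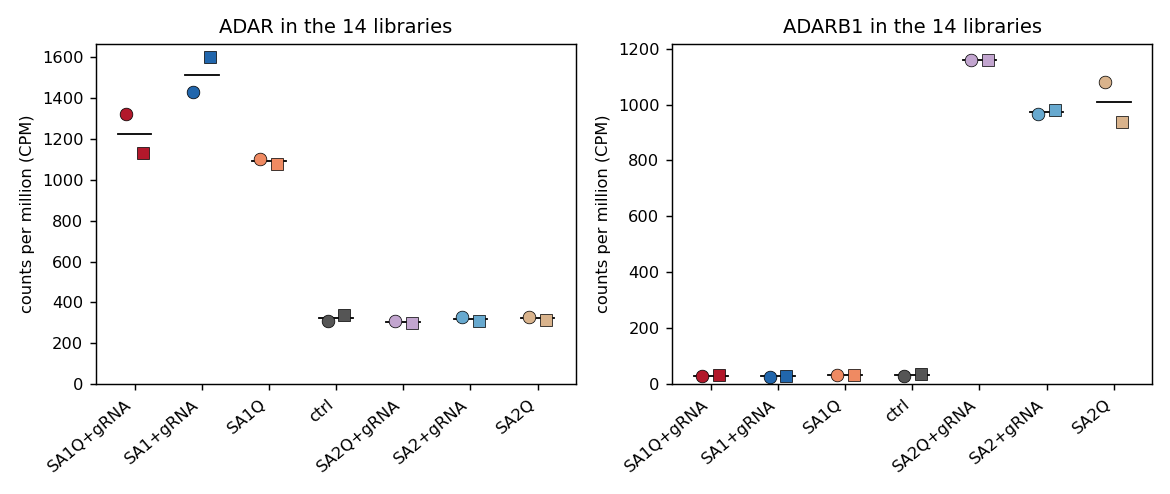
Level of ADAR (left) and ADARB1 (right) in CPM (y axis, from 0) in each of the 14 libraries, by group (x axis); circles are replicate 1, squares replicate 2 and lines the group means. ADAR was at 1130 to 1600 CPM in the 4 libraries compared here and at 307 and 340 CPM in ctrl, whereas ADARB1 was high in the SA2 lines alone.

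Genes called higher in cells with the mutant enzyme included CPLX2, UNC13A and SCG3, which act in vesicle release and secretory granules. Genes called lower included SLC7A11, ASNS and PSAT1 of amino acid supply, RPL3 and EIF4B of translation and INSIG1 of the sterol pathway. Of the 16418 genes tested, 154 (0.938%) were called at an adjusted p under 0.05. SA1Q+gRNA was higher for 71 of them (0.432% of the genes tested) and lower for 83 (0.506%). Most changes were small. The median change of the called genes was 1.59-fold upward and 1.43-fold downward, and 11 of the higher and 9 of the lower genes passed 2-fold. AP3B2, SYP, STX1A, RAB26, HOXB5, SLC6A9, SNHG6, RPS25, RPL9, FADS2 and IDI1 each overlap an antisense gene, and their counts are uncertain to that extent. In all 154 the libraries of the groups did not overlap, as was the case for 6853 of all genes tested.

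The number of calls depended on which libraries entered the fit. Without SA1Q+gRNA replicate 1 it was 59 (17 higher, 42 lower), and without replicate 2 it was 2067 (1207 higher, 860 lower). Without SA1+gRNA replicate 1 or 2 it was 15 or 29. In each such fit the library left alone in its group was assumed to vary like the other groups. Because the libraries of the groups did not overlap in any of the 154, leaving 1 out could hardly turn a direction. Every one of the 154 kept its direction in each of the 4 fits, and 12 were called in all 4. Those were CPLX2, IFRD1, PHF21B and SCG3 among the higher and ASNS, EIF4B, INSIG1, PSAT1, RPS29, SLC7A11, SNHG5 and TPT1 among the lower. DESeq2 called 565 genes (328 higher, 237 lower), 153 of the 154 among them.

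GC content moved with the comparison. The called higher genes had a median GC content of 59.7%, the called lower genes 47.6% and all tested genes 50.0%. Across all genes the log2 change had a rho of 0.42 with GC content, 0.08 without SA1Q+gRNA replicate 1 and 0.52 without replicate 2. Of the 71 higher genes, 58 were higher in SA1Q+gRNA replicate 1 than in replicate 2, against 41 of the 83 lower genes. With an offset for transcript length and GC content in each library, 67 of the 71 and 82 of the 83 were still called, in a total of 563 (227 higher, 336 lower). Without SA1Q+gRNA replicate 1, 16 of the 71 and 32 of the 83 were called.

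**Figure D2:**
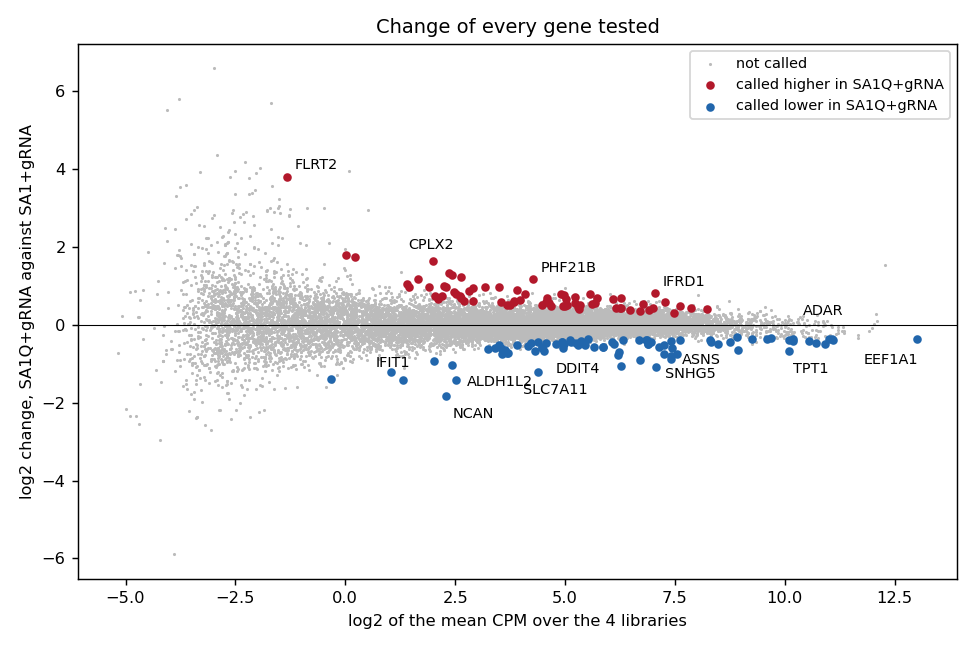
Log2 change between SA1Q+gRNA and SA1+gRNA (y axis) against the log2 of the mean CPM over the 4 libraries (x axis) for the 16418 genes tested; red and blue points are the 71 called higher and 83 called lower genes, and grey points the rest. The called falls reach the abundant end of the range, where EEF1A1 and TPT1 lie.

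CPLX2 encodes a complexin, which clamps and primes the machinery of vesicle fusion (chromosome 5, 175298501 to 175311023, plus strand). It was at 5.45 and 6.59 CPM in SA1Q+gRNA and at 2.04 and 1.87 CPM in SA1+gRNA, a log2 change of 1.63 (SE 0.19; adjusted p = 0.00087). The same line without guide held 5.39 and 6.33 CPM, and the other 8 libraries lay between 2.01 and 3.28 CPM, so the 4 libraries of the SA1Q line were the highest of the 14. CPLX1, its paralogue, was at 16.8 and 13.3 CPM against 7.10 and 8.02 CPM (log2 change 0.98, SE 0.18; adjusted p = 0.020). UNC13A (chromosome 19, 17712137 to 17799008, minus strand) encodes a factor that prepares synaptic vesicles for fusion. It was at 7.00 and 7.69 CPM in SA1Q+gRNA and at 2.82 and 3.04 CPM in SA1+gRNA. Its log2 change was 1.33 (SE 0.17; adjusted p = 0.0018), and SA1Q held 6.23 and 8.13 CPM. SYP, the vesicle membrane protein synaptophysin, was at 43.0 and 36.5 CPM against 24.0 and 22.8 CPM, a log2 change of 0.76 (SE 0.11; adjusted p = 0.0088).

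SCG3, a granule protein that binds chromogranins (chromosome 15, 51973550 to 52013223, plus strand), was at 7.28 and 7.85 CPM in SA1Q+gRNA and at 3.22 and 2.99 CPM in SA1+gRNA. The log2 change was 1.29 (SE 0.15; adjusted p = 0.00065), and the other libraries outside the SA1Q line lay between 3.18 and 4.98 CPM. CHGA, which encodes chromogranin A, was at 10.5 and 6.83 CPM against 3.11 and 4.23 CPM, with a log2 change of 1.22 (SE 0.19; adjusted p = 0.010). CHGB, the gene of chromogranin B, was at 9.18 and 9.02 CPM against 4.31 and 5.58 CPM and changed by 0.88 (SE 0.16; adjusted p = 0.020). AP3B2, a subunit of the neuronal adaptor complex that sorts vesicle cargo, was at 13.4 and 10.6 CPM against 6.48 and 5.73 CPM (log2 change 0.97). DLGAP3, a scaffold protein of synapses, was at 7.23 and 5.68 CPM against 3.08 and 3.47 CPM (0.97). STX1A and SCAMP5, a fusion protein and a vesicle carrier protein, were also called, by 0.62 and 0.49 on the log2 scale. These genes were taken from the calls, and no list of secretory genes was counted.

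In the list of 28 neuronal-lineage genes, 26 were tested, and 4 were called higher (SYP, UNC13A, CPLX2 and CPLX1) and 1 lower (NCAN). That is 19.2% of the list against 0.938% of all genes tested, and the median log2 change was 0.43 against 0.00. In SA2Q+gRNA against SA2+gRNA the list's median was 0.06, with 1 called. In SA1Q against ctrl the median was 0.00, with 5 called higher and 1 lower. The list's summed level was 458 and 460 CPM in SA1Q+gRNA and 422 and 399 CPM in SA1+gRNA. SA2+gRNA held 520 and 431 CPM. This list, like the others used here, was chosen with earlier results of these data known. Its share is therefore a description and not a test. Without SA1Q+gRNA replicate 1, CPLX1 lost its call (adjusted p = 0.12) and GRIK3, a glutamate receptor gene, gained one (log2 change 0.88, adjusted p = 0.042), which left 4 higher and 1 lower calls. There were 6 and 1 without SA1Q+gRNA replicate 2; without SA1+gRNA replicate 1 it had 1 and 1, and without SA1+gRNA replicate 2 it had 2 higher calls. In RNA from bulk cells, more transcript per cell and more cells with the transcript cannot be told apart. Other members were not called. The neurofilament gene NEFL was at 112 and 138 CPM against 144 and 119 CPM, and the neuronal tubulin gene TUBB3 at 21.6 and 16.7 CPM against 18.3 and 19 CPM. These 2 were chosen after their values were seen, and their adjusted p were 0.83 and 0.92.

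Regulators of transcription were also among the largest rises. NKX6-2, a homeodomain factor of neural progenitors (chromosome 10, 134598320 to 134599537, minus strand), was at 1.77 and 1.36 CPM in SA1Q+gRNA and at 0.564 and 0.330 CPM in SA1+gRNA. The log2 change was 1.80 (SE 0.38; adjusted p = 0.039), and the remaining 10 libraries ran from 0.454 to 1.15 CPM, below both SA1Q+gRNA libraries. PHF21B, a chromatin-associated PHD finger protein (chromosome 22, 45277043 to 45405581, minus strand), was at 26.7 and 27.1 CPM against 12.3 and 11.4 CPM. Its log2 change was 1.18 (SE 0.15; adjusted p = 0.0012), and SA1Q held 20.5 and 28.8 CPM. PAX5, a paired-box factor known from B cells and the midbrain, was at 3.91 and 4.81 CPM against 2.08 and 1.82 CPM (log2 change 1.17). NRL, the leucine zipper factor of rod photoreceptors, was at 4.06 and 3.04 CPM against 1.40 and 2.00 CPM (1.04). HOXB5 was the 1 member called among 34 HOX genes tested, at 19 and 15.3 CPM against 10.3 and 12.4 CPM; the list's median was 0.20, and no HOX gene was called without SA1Q+gRNA replicate 1 or without either SA1+gRNA library, and 10 were called higher without SA1Q+gRNA replicate 2 (median 0.30).

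The other rises by the naming rule were WFIKKN1, CNKSR1, AJM1 and CALHM2. WFIKKN1, a secreted protein that binds growth factors of the myostatin group, was at 2.01 and 1.59 CPM against 0.473 and 0.594 CPM, a log2 change of 1.73 (SE 0.36; adjusted p = 0.038). CNKSR1, a scaffold of Ras signalling, was at 7.18 and 5.44 CPM against 2.91 and 3.32 CPM (1.01). AJM1, an apical junction component, was at 5.50 and 4.5 CPM against 2.4 and 2.66 CPM (0.97). CALHM2, of a family of calcium-modulated channels, was at 3.96 and 3.20 CPM against 1.78 and 1.88 CPM (0.96).

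A pair of called genes outside the rule, chosen after their values were seen, marked the SA1Q line in all 4 of its libraries. IFRD1, a regulator of transcription that responds to stress and growth factors (chromosome 7, 112090483 to 112117258, plus strand), was at 163 and 175 CPM in SA1Q+gRNA and at 178 and 177 CPM in SA1Q. It was at 100 and 92.1 CPM in SA1+gRNA and at 93.0 and 81.5 CPM in ctrl. The log2 change was 0.82 (SE 0.08; adjusted p = 0.00030). The SA2 lines held 85.1 to 117 CPM, with both SA2Q+gRNA libraries (117 and 114) above both SA2+gRNA libraries (85.4 and 85.1). FLRT2, a cell adhesion protein of the fibronectin leucine-rich family, was at 0.643 and 0.854 CPM in SA1Q+gRNA and at 0.804 and 0.558 CPM in SA1Q. No other library exceeded 0.0955 CPM. Its log2 change was 3.81 (SE 0.71; adjusted p = 0.023), at a level where the SA1+gRNA libraries, at 0.0182 and 0.0826 CPM, held few fragments.

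**Figure D3:**
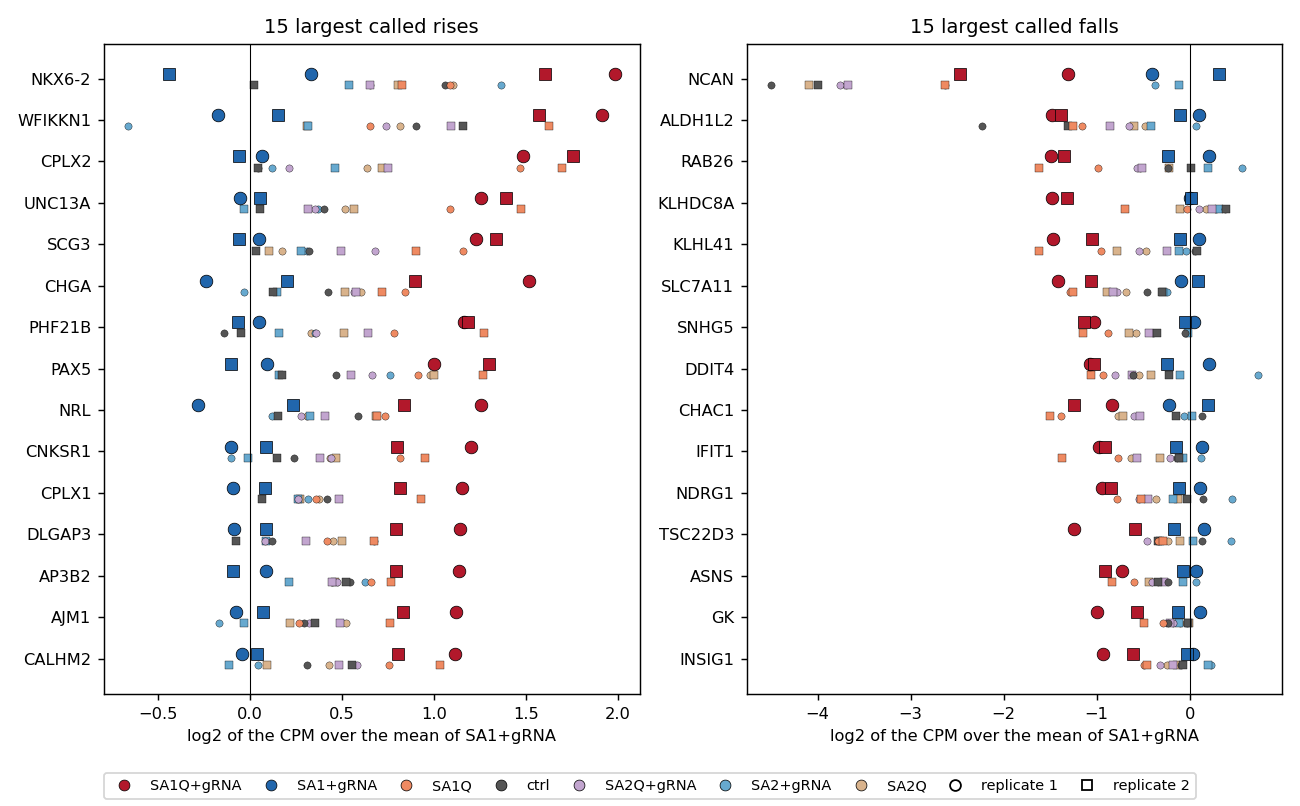
Level of the 15 largest called rises (left) and falls (right) as the log2 of the CPM over the mean of SA1+gRNA (x axis), 1 gene per line; large red and blue symbols are SA1Q+gRNA and SA1+gRNA, small symbols the other groups, circles replicate 1 and squares replicate 2. The SA1Q libraries lie near SA1Q+gRNA for CPLX2, UNC13A and SLC7A11, whereas NCAN is high in both wild-type groups with guide.

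Several of the largest falls were genes that supply amino acids, which the integrated stress response raises through the factor ATF4 when translation initiation is held back. Of the 40 genes of that list, all tested, 14 were called lower and none higher, 35% against 0.938% of all genes. This list too was chosen with earlier results of these data known, so the share is a description and not a test. The median log2 change was -0.25, against 0.00 over all genes, and 32 of the 40 lay below 0. The number called lower was 9 without SA1Q+gRNA replicate 1 and 14 without replicate 2, and in the second of these fits 1 member was called higher. It was 4 and 5 without SA1+gRNA replicate 1 and 2. With the offset for length and GC content it was 20. The summed level of the list was 5290 and 4800 CPM in SA1Q+gRNA and 5790 and 6030 CPM in SA1+gRNA. In ctrl the sum was 5750 and 5510 CPM, and in SA1Q it was 4850 and 4830 CPM. The fall was not particular to the ADAR1 groups. In SA2Q+gRNA against SA2+gRNA the list's median was -0.21, with 0 called. The sums there were 5340 and 5500 CPM against 6070 and 5900 CPM.

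Transporters and synthesis enzymes made up most of the 14. SLC7A11, the cystine importer (chromosome 4, 139085248 to 139163503, minus strand), was at 10.9 and 14 CPM in SA1Q+gRNA and at 27.3 and 31.1 CPM in SA1+gRNA. Its log2 change was -1.22 (SE 0.12; adjusted p = 0.00030). SA1Q held 12 and 12.2 CPM and ctrl 21.3 and 23.8 CPM, so the means of both SA1Q groups were the lowest and that of SA1+gRNA the highest of the 7 groups. An antisense gene overlaps SLC7A11, and the use of strand in counting is not given. ASNS, asparagine synthetase (chromosome 7, 97481429 to 97501477, minus strand), was at 132 and 116 CPM against 228 and 207 CPM, a log2 change of -0.81 (SE 0.10; adjusted p = 0.0012). PSAT1, of serine synthesis (chromosome 9, 80911991 to 80945009, plus strand), was at 132 and 142 CPM against 208 and 207 CPM, a log2 change of -0.60 (SE 0.07; adjusted p = 0.0012). ALDH1L2, a mitochondrial folate enzyme (chromosome 12, 105413562 to 105478341, minus strand), was at 3.01 and 3.22 CPM against 9.05 and 7.81 CPM. It changed by -1.43 (SE 0.22; adjusted p = 0.0091), but ctrl, at 1.79 and 3.41 CPM, lay around the level of the mutant.

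The remaining calls of this list ran from -1.05 to -0.40 on the log2 scale. DDIT4, an inhibitor of the growth kinase mTORC1, was at 49.4 and 50.8 CPM against 120 and 87.6 CPM. CHAC1, which degrades glutathione, was at 4.01 and 3.02 CPM against 6.13 and 8.19 CPM. The others were the transporters SLC6A9 and SLC38A2, the serine, folate and cysteine enzymes PSPH, MTHFD2, CTH and CBS, the gluconeogenic enzyme PCK2 and the secreted hormone STC2. The regulators of the response, chosen after their values were seen, were not among the calls. ATF4 was at 811 and 685 CPM against 810 and 846 CPM (log2 change -0.15, adjusted p = 0.46). DDIT3, the stress factor CHOP, was at 31.3 and 29.2 CPM against 26.5 and 25.5 CPM (0.22, adjusted p = 0.36). ATF3, which ATF4 induces, was at 125 and 111 CPM against 102 and 101 CPM (0.22, adjusted p = 0.23), and the pseudokinase gene TRIB3 was at 55.2 and 50.2 CPM against 60.2 and 60.8 CPM (-0.20, adjusted p = 0.27).

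**Figure D4:**
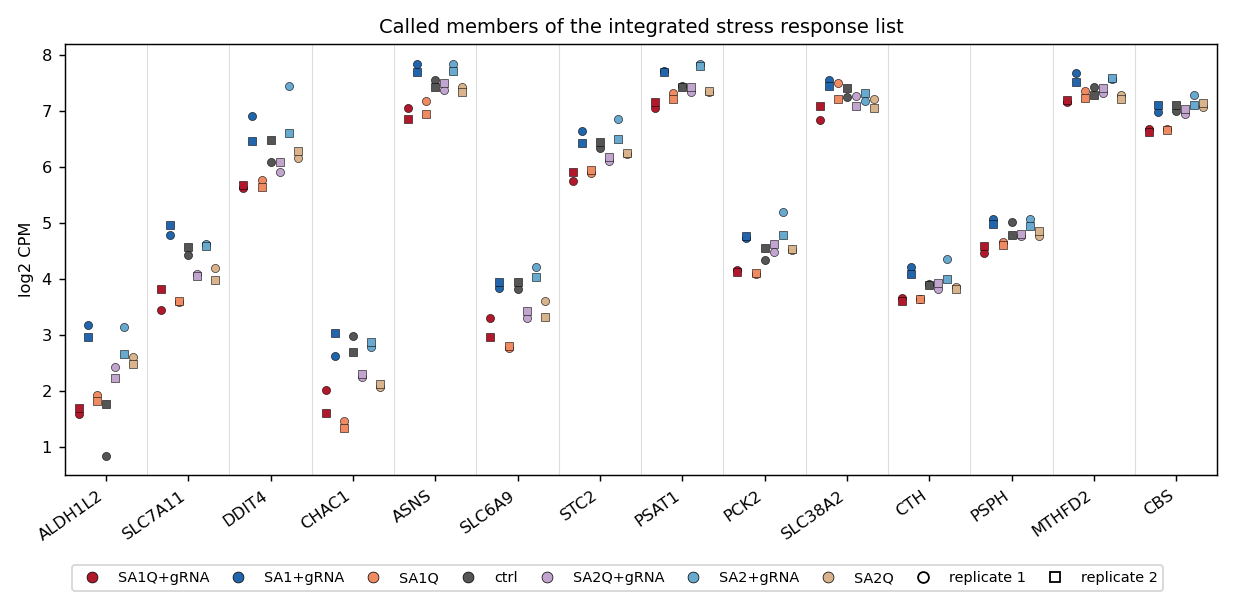
Log2 CPM (y axis) of the 14 called members of the integrated stress response list (x axis, ordered by log2 change) in all 14 libraries, coloured by group; circles are replicate 1 and squares replicate 2. Both SA1Q+gRNA libraries lie below both SA1+gRNA libraries for each gene.

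The promoters of these genes were searched, on both strands, for the core of the amino acid response element, TGATGNAA, which ATF4 with its partners binds, and for the cAMP response element core TGACGT. The windows were the 250 bases before to 50 after the RefSeq start site (GRCh38.p14), and 11 of the 14 called genes had one. ASNS and CHAC1 held the first motif, 2 of 11, against 3.67% of all 27305 promoters and 1.71% of those of tested genes. CTH held the second, 1 of 11, against 8.32% and 11%. The stretches with a match are shown because ASNS and CHAC1 are textbook targets of ATF4; they are written 5′ to 3′ along the gene's strand, with the matched bases in capitals.
ASNS (chr7:97872449-97872496, minus strand, 88 to 41 bases before the start site): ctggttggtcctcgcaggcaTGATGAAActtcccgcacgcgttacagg
CHAC1 (chr15:40953242-40953289, plus strand, 229 to 182 bases before; the match is on the other strand): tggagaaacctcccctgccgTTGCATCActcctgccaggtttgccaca
CTH (chr1:70411101-70411146, plus strand, 167 to 122 bases before): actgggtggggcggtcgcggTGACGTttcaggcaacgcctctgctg
A match is a description of the letters and shows no binding.

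Of 46 cytosolic ribosomal protein genes of the list, 5 were called lower and none higher. That is 10.9% of the list, against 0.938% of all genes tested. The median log2 change was -0.21, against 0.00 over all genes, and 41 lay below 0. RPL3 was at 1730 and 1510 CPM against 2310 and 2200 CPM, a log2 change of -0.48 (SE 0.09; adjusted p = 0.023). RPL10A, RPS23 and RPS24 changed by -0.36, -0.38 and -0.36. RPL13A changed by -0.47 but overlaps the gene copy RPL13AP5, also called, so their fragments could not be told apart. No member of the list was called without either SA1+gRNA library, 4 were called lower without SA1Q+gRNA replicate 1, and 6 lower and 1 higher without replicate 2. Without both libraries that stood apart, 30 were called lower (median -0.31), and the number was 19 with the offset for length and GC content and 12 with DESeq2. The summed level of the list was 65700 and 56800 CPM in SA1Q+gRNA, against 69300 and 70300 CPM in SA1+gRNA. SA1Q was at 55400 and 56600 CPM. The fall was not particular to the ADAR1 groups. SA2Q+gRNA was at 65100 and 65200 CPM, against 70200 and 69800 CPM in SA2+gRNA (list median -0.09, 0 called). ctrl replicate 1, the other library that stood apart, was at 74000 CPM and ctrl replicate 2 at 59900 CPM.

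RPS29, a small-subunit protein gene outside that list (chromosome 14, 50050290 to 50053134, minus strand), was also called. It was at 141 and 136 CPM against 232 and 237 CPM, -0.76 on the log2 scale (SE 0.08; adjusted p = 0.00053). TPT1, which encodes the translationally controlled tumour protein (chromosome 13, 45907606 to 45915419, minus strand), was at 850 and 839 CPM against 1390 and 1320 CPM (-0.68, SE 0.08; adjusted p = 0.00065). EIF4B, an initiation factor that assists the helicase of the cap complex (chromosome 12, 53400062 to 53435993, plus strand), was at 371 and 390 CPM against 607 and 577 CPM (-0.64, SE 0.07; adjusted p = 0.00061). The elongation factor gene EEF1A1 was at 7540 and 6900 CPM against 9510 and 9190 CPM, a log2 change of -0.37 (SE 0.07; adjusted p = 0.032). RPS29, TPT1 and EIF4B were chosen after their values were seen, and SA1Q without guide held 136 and 132, 902 and 841, and 396 and 394 CPM of them. RPS25, RPL27A, RPL34 and RPL9, also outside the list, were called lower as well.

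Host genes of small nucleolar RNAs, many of which begin like ribosomal protein genes with a run of pyrimidines, held another fall called in all 4 fits. SNHG5 (chromosome 6, 86386725 to 86388451, minus strand) was at 89.0 and 82.5 CPM in SA1Q+gRNA and at 188 and 176 CPM in SA1+gRNA, a log2 change of -1.09 (SE 0.10; adjusted p = 0.00030). SA1Q held 98.9 and 82.2 CPM and ctrl 175 and 143 CPM. SNHG6 was called too, at -0.56, which makes 2 of 15 tested, both lower. That is 13.3%, against 0.938% of all genes tested, and the list's median was -0.21. HNRNPA1, an abundant splicing factor, changed by -0.37 and was the 1 call among 30 RNA decay and splicing factors, but its pseudogene HNRNPA1P10 took nearly the same counts.

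Of 30 sterol and fatty acid genes tested, 4 were called lower and none higher. That is 13.3%, against 0.938% of all genes tested. The median log2 change was -0.16, and 25 lay below 0. INSIG1, the sterol-sensing anchor of the SREBP pathway (chromosome 7, 155089486 to 155101945, plus strand), was at 99.9 and 125 CPM against 195 and 187 CPM, -0.76 on the log2 scale (SE 0.10; adjusted p = 0.0012). MSMO1, IDI1 and FADS2, enzymes of sterol, isoprenoid and polyunsaturated fatty acid synthesis, changed by -0.59, -0.45 and -0.48. Without SA1Q+gRNA replicate 1, or without either SA1+gRNA library, 1 call was left, and without SA1Q+gRNA replicate 2 there were 11. With the offset there were 10. The summed level of the list was 4650 and 4790 CPM in SA1Q+gRNA and 4860 and 5390 CPM in SA1+gRNA. It was 4760 and 4790 CPM in SA2Q+gRNA and 5190 and 5220 CPM in SA2+gRNA. Between these SA2 groups the list's median was -0.08, with 0 called. In SA1Q against ctrl the median was -0.07, with 4 called lower.

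NCAN had the largest fall by the naming rule. It encodes neurocan, a chondroitin sulfate proteoglycan of brain matrix (chromosome 19, 19322782 to 19363061, plus strand). It was at 3.04 and 1.36 CPM in SA1Q+gRNA and at 5.68 and 9.41 CPM in SA1+gRNA, a log2 change of -1.83 (SE 0.29; adjusted p = 0.011). SA2+gRNA held 5.84 and 6.96 CPM, SA1Q held 1.22 in each library, and the other 6 libraries lay between 0.334 and 0.593 CPM. The transcript was therefore high in both groups with a wild-type deaminase and guide, intermediate in the SA1Q line and low in ctrl and the SA2Q line. NCAN also had the larger change of the 2 genes called between SA2Q+gRNA and SA2+gRNA, at -3.47 (SE 0.34). Without SA1+gRNA replicate 2 it was not called in the ADAR1 comparison.

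Among the other large falls, RAB26, a GTPase of secretory granules, was at 1.29 and 1.43 CPM against 4.19 and 3.09 CPM (log2 change -1.41, SE 0.23; adjusted p = 0.013). Its direction was opposite to that of SCG3, CHGA and CHGB. KLHL41 and KLHDC8A, 2 kelch-repeat genes, changed by -1.22 and -1.39. NDRG1, raised by hypoxia and differentiation, was at 70.4 and 75.1 CPM against 146 and 125 CPM (-0.90) and was the 1 call among 31 glycolysis and hypoxia genes. TSC22D3, the glucocorticoid-induced leucine zipper gene, was at 92.1 and 146 CPM against 243 and 195 CPM (-0.88). GK, glycerol kinase, was at 46.2 and 62.3 CPM against 100 and 84.6 CPM (-0.77). MYC, a growth factor-induced transcription factor, changed by -0.48 and was the 1 call among 30 immediate early genes, whose median was 0.08.

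Of 33 interferon-stimulated genes tested, IFIT1 was called lower and none higher. That is 3.03%, against 0.938% of all genes tested. The list's median was -0.21, and 25 lay below 0. IFIT1, which binds RNA with a foreign cap structure (chromosome 10, 91152303 to 91166244, plus strand), was at 2.68 and 2.81 CPM against 5.81 and 4.77 CPM, -0.94 on the log2 scale (SE 0.20; adjusted p = 0.041). It was called without SA1Q+gRNA replicate 2 but in none of the other 3 fits with a library left out. SA1Q held 3.10 and 2.04 CPM and ctrl 4.82 and 4.88 CPM. ISG15, a ubiquitin-like modifier chosen after its values were seen, was at 5.94 and 5.34 CPM against 4.61 and 4.21 CPM (0.35, adjusted p = 0.24). None of 20 sensor genes was called, and STING1, the adaptor of cytosolic DNA sensing, differed by -0.28 (adjusted p = 0.15).
The IFIT1 promoter is shown because the interferon response element core GAAANNGAA occurred in it 2 times, both on the reverse strand; 8.29% of all promoters and 6.32% of those of tested genes held it at least 1 time.
IFIT1 (chr10:89392488-89392549, plus strand, 135 to 74 bases before the start site): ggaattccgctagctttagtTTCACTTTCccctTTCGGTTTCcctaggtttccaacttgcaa

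**Figure D5:**
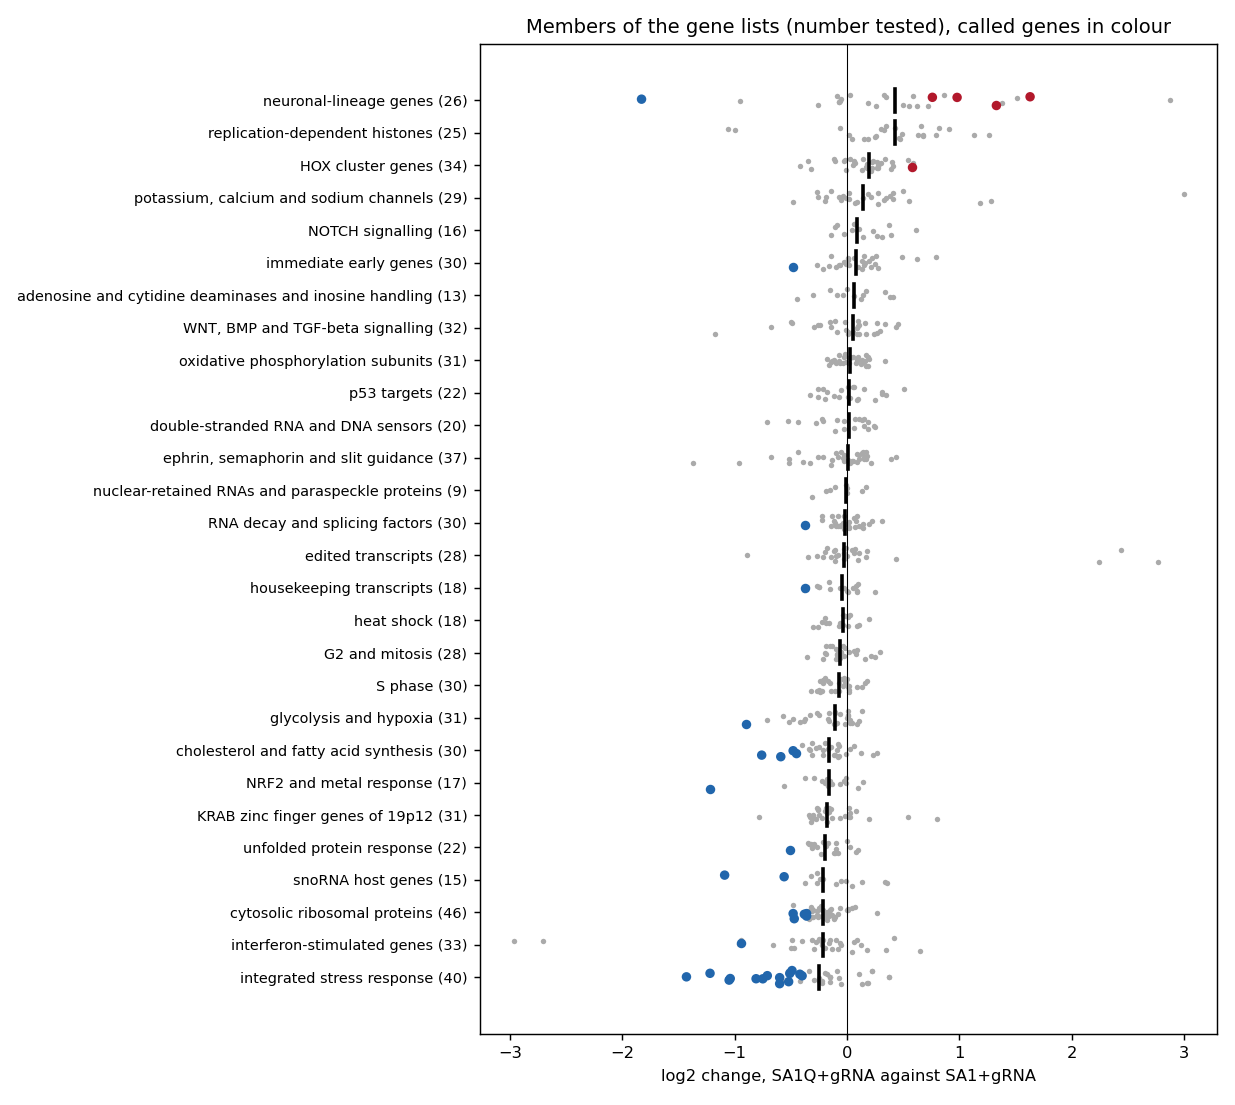
Log2 change between SA1Q+gRNA and SA1+gRNA (x axis) of the tested members of 28 gene lists (y axis, number tested in brackets), ordered by the list median (black bar); blue and red points are called lower and higher, grey points not called. The stress response list has 14 blue points, and the calls of the neuronal list lie on both sides of 0.

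The enzymes of RNA editing and their known substrates gave no call. None of 13 tested deaminases and inosine-handling genes was called (median 0.06). ENDOV, which cuts RNA at inosine, had the next smallest p after ADAR and differed by 0.41 (SE 0.16; adjusted p = 0.22), at 18.6 and 12.3 CPM in SA1Q+gRNA and at 11.1 and 12 CPM in SA1+gRNA. Of 28 transcripts known to be edited, none was called and the median was -0.03. AZIN1, whose recoding by ADAR1 is known from liver tumours, was at 81.9 and 98.1 CPM against 125 and 105 CPM (-0.35, SE 0.10; adjusted p = 0.11), and NUP43 differed by -0.21 (adjusted p = 0.21). A transcript level does not show how much of the transcript was edited, which was not analysed here.

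Other lists had no call or 1 in the edgeR fit of all 14 libraries, where 0.938% of all genes were called. Some of them had more with DESeq2, with the offset for length and GC content or without SA1Q+gRNA replicate 2. SLC7A11 was the 1 call among 17 genes of the NRF2 and metal response (5.88%, median -0.16). EEF1A1 was the 1 call among 18 housekeeping transcripts (5.56%, median -0.04). HERPUD1, an endoplasmic reticulum stress gene, was at 37.2 and 35.3 CPM against 53.2 and 50.1 CPM (-0.51). It was the 1 call among 22 genes of the unfolded protein response (4.55%, list median -0.20). DESeq2 and the offset each called 4 genes of that list lower. The 25 replication-dependent histone genes tested, whose mature transcripts lack a poly(A) tail, had a median of 0.43, as high as the neuronal list, and none was called; H2AC18 was at 21.8 and 17.0 CPM against 11.7 and 12.7 CPM (adjusted p = 0.092). DESeq2 and the offset each called 3 of the histone genes higher. Their summed level was 187 and 162 CPM in SA1Q+gRNA and 137 and 146 CPM in SA1+gRNA. It was 187 in ctrl replicate 1 and 127 in ctrl replicate 2, and 168 and 182 CPM in SA1Q. SA2Q+gRNA held 164 and 184 CPM, against 138 and 153 CPM in SA2+gRNA. No call was made among 18 heat shock genes, 22 p53 targets, 30 S phase genes, 28 mitotic genes or 31 subunits of oxidative phosphorylation, with medians of -0.04, 0.02, -0.07, -0.06 and 0.03. Lists of guidance cues, KRAB zinc finger genes, WNT, BMP and TGF-beta signalling, NOTCH signalling, ion channels and nuclear-retained RNAs also had none. Their medians ran from -0.18 to 0.14. The median of the KRAB list was -0.04 without SA1Q+gRNA replicate 1 and -0.36 without replicate 2. That of the oxidative phosphorylation list was -0.05 and 0.10 in the same fits.

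Markers of other cell types did not separate the groups by a called gene. Of 11 genes known to be expressed in 293 cells, all were tested, none was called and their summed level was 1930 and 1680 CPM in SA1Q+gRNA and 1610 and 1720 CPM in SA1+gRNA. The sums were 13.4 and 17.3 against 17.1 and 16.9 CPM for endothelial markers and 31.3 and 37.4 against 37.2 and 40.2 CPM for kidney tubule markers. For blood markers they were 131 and 138 against 168 and 169 CPM, most of it from LCP1, at 110 and 121 against 146 and 146 CPM (adjusted p = 0.054). Epithelial and fibroblast markers gave 707 and 685 against 716 and 769 CPM and 1460 and 1230 against 1130 and 1230 CPM.

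The series allowed the same question to be put to the other enzyme. It also allowed the mutant without guide to be set against the empty-vector line, which is not a comparison of mutant with wild type. Neither of these comparisons shares a library with the first. For SA2Q+gRNA against SA2+gRNA, 2 of 16418 genes were called (0.0122%), NCAN and the ion channel gene ASIC1, both lower. In that comparison, 73 of the 83 genes called lower between the ADAR1 groups lay below 0 (median -0.21), against 8175 of all 16418. Of the 71 higher genes, 46 lay above 0 (median 0.10), against 8243 of all 16418. The difference between both comparisons, tested as an interaction, called 0 genes (0.0%) with edgeR, whereas 1529 had an unadjusted p under 0.05 and DESeq2 called 48. Of those 48, 24 were among the 154, with AP3B2, CPLX2, DLGAP3, PHF21B, SCG3 and UNC13A of the higher and HERPUD1, SNHG5 and TPT1 of the lower genes. The difference thus depended on the tool for these genes. CPLX2 changed by 1.63 and 0.19 (adjusted p of the difference 0.25 with edgeR, unadjusted p = 9.9e-05), and DDIT4 by -1.05 and -1.08. With edgeR 329 genes were called in the interaction without SA1Q+gRNA replicate 2, 47 of the 154 among them.

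SA1Q without guide against ctrl gave 473 called genes (2.88%), 181 higher (1.1%) and 292 lower (1.78%). With the offset for length and GC content the balance turned, to 662 higher and 314 lower of 976, and ctrl replicate 1 is one of the libraries that stood apart. Of the 71 genes called higher between the guide-treated groups, 61 lay above 0 in this comparison, against 8226 of all 16418, and 16 were called higher. Those are 22.5% of the 71 and 8.84% of the 181, and they include CPLX2, UNC13A, SCG3, CHGB, PHF21B, IFRD1 and FLRT2. Of the 83 genes called lower, 76 lay below 0, against 8192 of all 16418. Of the 83, 34 were called lower, 41.0% of the 83 and 11.6% of the 292. Those include SLC7A11, ASNS, CHAC1, STC2, SNHG5, TPT1, RPS29, EIF4B, INSIG1, IFIT1, RAB26 and MYC. None was called in the opposite direction. NKX6-2, WFIKKN1 and AP3B2 changed by 0.37, 0.16 and 0.18 against ctrl, with adjusted p of 0.61, 0.83 and 0.49. ALDH1L2 went the other way by value, at 0.47 (adjusted p = 0.27). Both comparisons have the SA1Q line in the numerator, in separate libraries, and set it against lines that differ from it in more than the mutation.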

How the data were processed

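Polyadenylated RNA of 14 libraries was sequenced in pairs on a kit that keeps strand, per the labels' protocols. The submitters' processing notes name hg19, STAR 2.4.2a and Trim Galore. How fragments were counted, by strand or with several matches, is not given in these sources. The deposited files held, per the file headers, a count of fragments for each of 46830 RefSeq transcripts. An FPM signal column, also deposited, served to choose the transcript, and the authors' FPKM column served in an alternative. Accessions were named by RefSeq (GRCh38.p14) and GENCODE tables (98.6%), and the 887 entries without a name (0.81% of counts) and those under 200 nucleotides were left out. The transcript of the highest mean FPM stood for each of 22410 genes.

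The quasi-likelihood test of edgeR 4.0.16 (R 4.3.3; two-sided, TMM scaling) was run on the counts of all 14 libraries in 7 groups, with no covariate, after filterByExpr (minimum count 10, at least 2 libraries). A gene was called at a Benjamini-Hochberg adjusted p under 0.05. With 7 residual degrees of freedom, the biological coefficient of variation was 8.63%. Nothing in the labels ties a library to a separate culture beyond the words of the design text, so p-values may measure technical spread. On simulated data the test recovered 50 of 50 genes changed by 2 and 46 of 50 changed by 1 on the log2 scale. Those data held no library that stood apart and no trend with GC content, and only genes above 1 CPM were changed. The median called changes here were smaller, at 0.67 and -0.51, so the recovery does not carry over to them.

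Named genes were ADAR, ADARB1, MGMT, ACTB, GAPDH and GUSB, the 15 largest called rises and falls with groups that did not overlap and a mean of at least 1 CPM in the higher group, and up to 4 called members of each list by smallest p, or 2 where none was called; some genes that the rule chose are not reported here. The comparison, the lists and the rule were chosen with earlier results of these data known. Alternatives were DESeq2 1.42.0, limma 3.58.1 on counts and on log2(FPKM + 0.5), other scaling, filters, transcripts and libraries, and the offset for length and GC content. Promoter sequences are from RefSeq (GRCh38.p14), and gene positions are those of the files on hg19.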

Additional observations from a re-analysis of the deposited data

How the results depend on the processing

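For SA1Q+gRNA against SA1+gRNA, the 154 calls became 147 with limma on log2(FPKM + 0.5), 150 with DESeq2 size factors in edgeR, 158 with the even counts as deposited, 152 with the longest transcript of each gene and 140 with limma-voom. They became 565 with DESeq2, 367 (217 higher) with no filter, 563 with the offset on length and GC content, 410 with that offset and without both libraries that stood apart, 220 (59 higher, 161 lower) without those libraries alone, and 11 with only the 4 libraries in the fit; with fewer libraries the spread rests on fewer degrees of freedom. Without 1 of the 4 libraries the count ran from 15 to 2067, and the changes of MGMT, ACTB and GAPDH reached 0.25, 0.27 and 0.13 without SA1Q+gRNA replicate 2. ADAR kept its direction throughout, at -0.42 without both libraries apart and -0.50 with the offset in addition, where it passed the threshold.

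The log2 difference between replicates 1 and 2 had a correlation across genes of -0.14 between SA1Q+gRNA and SA1+gRNA. Between SA1Q+gRNA and ctrl, whose replicate 1 libraries both stood apart, it was 0.44. With 2 libraries a group, these values cannot decide whether the numbers pair the libraries. A replicate block gave 91 calls, and 460 with the offset; the crossed pairing, tried after seeing the data, gave 93. With the block, SA2Q+gRNA against SA2+gRNA had 1 call (36 with the offset), SA1Q against ctrl 315 (816, of them 544 higher) and the interaction 0 (3).

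SA2Q+gRNA against SA2+gRNA had 53 calls with DESeq2, 1 with limma on FPKM, 16 with no filter, 34 with the offset, 124 without both libraries apart and 1 to 5 without 1 library. The interaction had 48 with DESeq2, 6 with no filter, 1 with the offset, 4 without both libraries apart and 0 to 329 without 1 library, the highest without SA1Q+gRNA replicate 2. SA1Q against ctrl had 1065 with DESeq2, 976 (662 higher) with the offset, 1246 without both libraries apart and 38 to 850 without 1 library. The cause of these differences was not tested.

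Among the genes that the naming rule chose and that are reported here, signs changed for 4 that were not called. MGMT was at -0.06 with the offset, -0.07 with offset and block, -0.01 with limma-voom, -0.22 without SA1Q+gRNA replicate 1, -0.22 without both libraries apart and -0.21 with the offset in addition. ACTB was at -0.04 without SA1+gRNA replicate 1, and at -0.15, -0.15 and -0.14 in the last 3 of those settings. GAPDH was at -0.01 with limma on FPKM, -0.09 with the offset with or without the block, 0.00 with limma-voom, -0.02 without SA1+gRNA replicate 1, and -0.13, -0.13 and -0.12 in the same 3. GUSB was at 0.00 with the 4 libraries, DESeq2 and its size factors, at 0.03 without SA1+gRNA replicate 2 and at 0.07 without SA1Q+gRNA replicate 2. Genes under about 1 CPM rest on few fragments.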
